A study of Mus musculus with 3 samples.

Results

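Ribosomal protein and translation factor genes were examined for peaks of Tcf1, the T cell transcription factor that the Tcf7 gene encodes, in mouse CD4 T cells. The members were the protein-coding genes of the RefSeq table whose symbol starts with Rpl, Rps, Eif or Eef followed by a number, leaving out the Rps6k and Eif2ak kinases and names that contain -ps. This gave 152 genes of 21887 protein-coding genes on chromosomes 1 to 19, X and Y. A gene counted as having a peak when the midpoint of a peak lay in its span or within 1 kb of either end. The regulatory T cells (Treg cells) were CD25+ and carried the Foxp3-Cre-GFP reporter, and the conventional CD4 T cells lacked both. Both were TCRb+ CD4+ spleen cells of wild type Foxp3-Cre-GFP mice aged 8 to 10 weeks, and each gave 1 chromatin immunoprecipitation library and 1 list of peaks on the mm10 build. The conventional sample is called effector in its tissue label. CD4 T cells from CD4-Cre+ Tcf1 fl/fl mice were a further sample of the study and were not analysed here. The lists hold positions only, so the depth is unknown, and with 1 library of each cell type no difference between the cell types was tested. They hold no expression values either, so the cell labels could not be checked against marker transcripts. Peaks of both lists lay at Tcf7, Lef1 and Axin2, known genes of the pathway, and at Il2ra, Ctla4 and Cd3e, and none lay at Foxp3 or Cd4. Intervals are exact 95% Clopper-Pearson intervals and cover counting error only.

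The symbol rule was checked against the known products of the genes. It took 43 proteins of the large ribosomal subunit, 30 proteins of the small subunit, 46 initiation factors or their subunits and 6 elongation factors. The initiation factors were grouped by name, so they include Eif5a and Eif5a2. It also took 12 ribosomal paralogs or associated proteins, and 15 enzymes, binding proteins and paralogs that are named after a factor without being one, such as Eef2k, the kinase of the elongation factor eEF2. It left out 4 ribosomal proteins with no number after the stem, Rplp0, Rplp1, Rplp2 and Rpsa.

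Ribosomal proteins assemble with ribosomal RNA into the small subunit, which reads the mRNA, and the large subunit, which joins the amino acids. Initiation factors bring the first tRNA, the mRNA cap and the small subunit together, and elongation factors deliver later tRNAs and move the ribosome along. In vertebrates the promoters of these genes are mostly rich in CpG, and their mRNAs often begin with a C followed by an unbroken run of pyrimidines through which mTORC1 controls their translation. A resting T cell makes little protein and enlarges its translation machinery after activation.

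Promoters of the members with the widest peaks in both lists, by the sum of their width ranks, are shown first, because peaks at these genes lay mostly at the start. The sequences are those of RefSeq on GRCm38.p6, whose main chromosomes are those of mm10. Each runs 5′ to 3′ along the gene, from 250 bases before the annotated start to 30 bases after it. Capitals mark matches, on either strand, to the TCF/LEF letters CTTTGNN with A or T as the sixth letter or to the ETS letters CCGGAAG. Rpl18 was also among the 6 members with the widest peaks, but the midpoint of its Treg peak stood at -2651 bp from its only listed start, so its promoter is not shown.
Eif5, chr12:111537851-111538130, + strand: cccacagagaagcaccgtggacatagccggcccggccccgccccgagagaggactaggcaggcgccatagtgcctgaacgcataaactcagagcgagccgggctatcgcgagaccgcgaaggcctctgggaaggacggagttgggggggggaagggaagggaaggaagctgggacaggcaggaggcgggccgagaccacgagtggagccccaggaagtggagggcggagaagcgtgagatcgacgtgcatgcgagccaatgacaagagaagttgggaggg
Eif2b4, chr5:31193110-31193389, - strand: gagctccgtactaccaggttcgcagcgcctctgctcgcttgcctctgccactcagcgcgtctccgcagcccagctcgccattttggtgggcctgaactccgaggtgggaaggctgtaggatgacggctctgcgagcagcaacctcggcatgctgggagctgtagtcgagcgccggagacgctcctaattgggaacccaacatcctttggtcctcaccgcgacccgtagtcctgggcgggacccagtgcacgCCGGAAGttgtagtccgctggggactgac
Eif4a1, chr11:69672394-69672673, - strand: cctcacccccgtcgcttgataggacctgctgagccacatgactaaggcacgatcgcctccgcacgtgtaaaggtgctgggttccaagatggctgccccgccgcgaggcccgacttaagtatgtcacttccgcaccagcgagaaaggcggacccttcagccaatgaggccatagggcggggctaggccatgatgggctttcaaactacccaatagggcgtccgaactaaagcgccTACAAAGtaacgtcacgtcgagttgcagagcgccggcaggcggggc
Rpl37, chr15:5116363-5116642, + strand: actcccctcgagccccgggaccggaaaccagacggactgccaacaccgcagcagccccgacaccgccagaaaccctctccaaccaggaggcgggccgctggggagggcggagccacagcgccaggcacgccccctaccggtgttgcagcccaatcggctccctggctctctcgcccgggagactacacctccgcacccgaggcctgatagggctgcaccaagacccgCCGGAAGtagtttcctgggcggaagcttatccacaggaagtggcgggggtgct
Rpl7a, chr2:26910557-26910836, + strand: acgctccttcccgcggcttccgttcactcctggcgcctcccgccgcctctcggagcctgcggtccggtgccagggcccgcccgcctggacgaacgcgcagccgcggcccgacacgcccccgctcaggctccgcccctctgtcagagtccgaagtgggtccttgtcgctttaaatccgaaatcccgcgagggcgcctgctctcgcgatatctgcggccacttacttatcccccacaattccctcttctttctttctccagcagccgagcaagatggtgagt
The Treg peak at Eif5 covered 190 of the 280 bases shown and the conventional peak covered 0. At Eif2b4 the Treg peak covered 127 bases and the conventional peak 177. At Eif4a1 no Treg peak reached the promoter, and a conventional peak covered all 280 bases. Both peaks covered all 280 bases at Rpl37 and at Rpl7a. A match to the TCF/LEF letters was found in the Eif4a1 promoter alone among these 5, 16 bases before the start on the opposite strand. ETS letters were found in the Eif2b4 and Rpl37 promoters. In the Rpl7a promoter a run of 21 pyrimidines, ttccctcttctttctttctcc, crosses the start.

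For comparison, the first large subunit gene and the first small subunit gene in symbol order without a peak in either list are Rpl10 and Rps10.
Rpl10, chrX:74270566-74270845, + strand: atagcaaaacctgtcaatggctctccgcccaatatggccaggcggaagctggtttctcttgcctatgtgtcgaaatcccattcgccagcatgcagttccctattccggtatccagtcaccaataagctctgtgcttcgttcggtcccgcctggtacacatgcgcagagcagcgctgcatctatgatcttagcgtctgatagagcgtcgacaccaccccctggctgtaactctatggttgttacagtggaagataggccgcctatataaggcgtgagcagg
Rps10, chr17:27635215-27635494, - strand: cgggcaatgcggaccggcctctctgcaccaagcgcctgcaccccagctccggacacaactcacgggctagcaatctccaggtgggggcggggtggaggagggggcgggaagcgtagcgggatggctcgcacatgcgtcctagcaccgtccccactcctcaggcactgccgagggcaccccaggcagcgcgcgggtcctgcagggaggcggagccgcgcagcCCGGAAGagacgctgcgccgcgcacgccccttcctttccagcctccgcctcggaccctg
The Rpl10 promoter has no match to the TCF/LEF or ETS letters. The Rps10 promoter has an ETS match 29 bases before the start and a run of 13 pyrimidines over the start, so these features were present in promoters without a peak as well.

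Tcf1 peaks lay at 33 of the 152 members in the Treg list (21.7%, interval 15.4% to 29.1%), against 11.2% of all protein-coding genes. In the conventional list they lay at 58 of 152 (38.2%, 30.4% to 46.4%), against 16.0% of all protein-coding genes. The members with peaks in both lists numbered 28 (18.4%, 12.6% to 25.5%), against 7.76% of all protein-coding genes. A peak in either list was found at 63 members (41.4%, 33.5% to 49.7%), against a background of 19.4%. Each of these 4 intervals lay above the share over all genes. Tcf1 was thus mapped to a minority of these genes, and 89 members (58.6%) had no peak in either list.

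Members with a Treg peak were mostly a subset of those with a conventional peak. The 28 members with both were 84.8% of the members with a Treg peak and 48.3% of those with a conventional peak. Over all protein-coding genes the 1699 genes with both were 69.2% of the genes with a Treg peak and 48.6% of those with a conventional peak. The intervals for the members, 68.1% to 94.9% and 35.0% to 61.8%, include these shares over all genes. Treg peaks alone were found at 5 members (3.29%, against 3.45% of all genes), and conventional peaks alone at 30 members (19.7%, against 8.22%). The ratio of genes with a Treg peak to genes with a conventional peak was 0.569 for the members and 0.702 for all genes. The conventional list is also the longer one. When only as many of its widest peaks were used as the Treg list holds, 48 members had a conventional peak (31.6%, against 12.7% of all genes), and the Treg count stayed at 33.

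**Figure D1:**
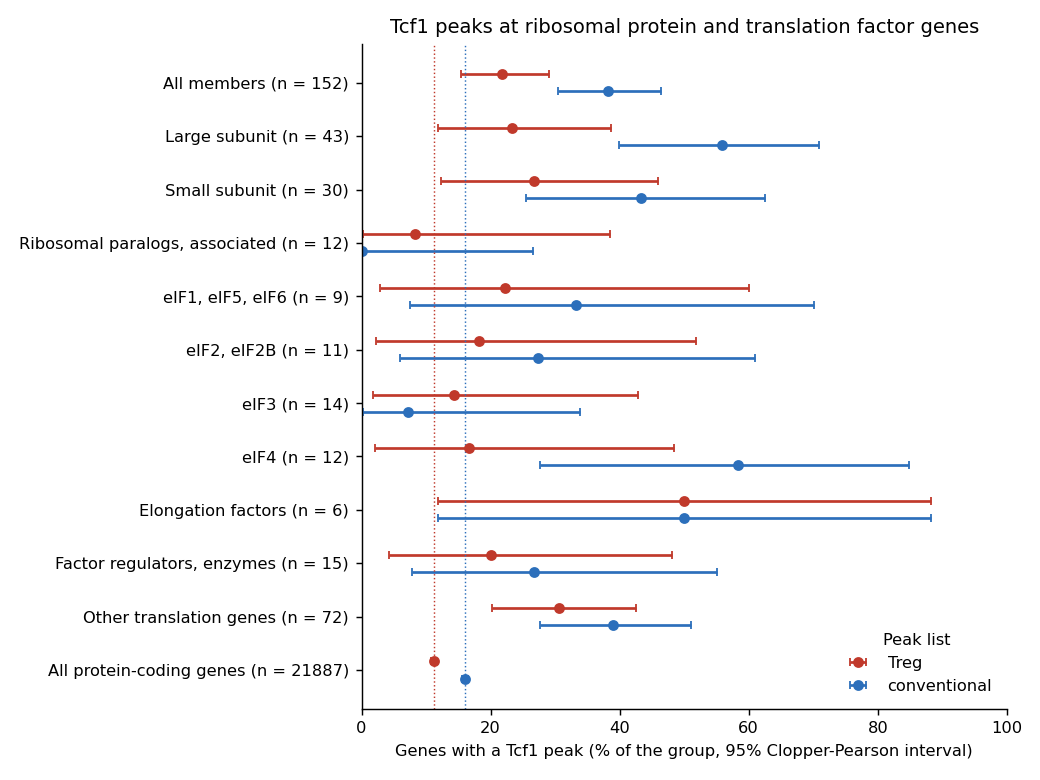
Percentage of genes with a Tcf1 peak in the Treg list (red, upper point) and in the conventional list (blue, lower point), by role of the gene, with 95% Clopper-Pearson intervals and with all protein-coding genes in the lowest row and as dotted lines. The large subunit genes stand at 23.3% and 55.8%, against 11.2% and 16.0% of all protein-coding genes.

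The large subunit genes carried a Treg peak at 10 of 43 (23.3%, 11.8% to 38.6%) and a conventional peak at 24 of 43 (55.8%, 39.9% to 70.9%). All 10 genes with a Treg peak also had a conventional peak. Rpl37 had a Treg peak of 620 bp (chr15:5116166-5116785) and a conventional peak of 603 bp (chr15:5116255-5116857), both also in the window of Card6. Rpl7a had a Treg peak of 560 bp (chr2:26910425-26910984) and a conventional peak of 608 bp (chr2:26910480-26911087), both also in the window of Med22. Both genes thus had peaks wider than 80% of their lists, at 90.0% and 85.9% in the Treg list and 80.6% and 81.3% in the conventional list.

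Rpl18 had a Treg peak of 688 bp (chr7:45715077-45715764) and a conventional peak of 563 bp (chr7:45715129-45715691) at the 5′ end of its span, with midpoints 47 and 57 bp outside it and in the window of Sphk2, a sphingosine kinase gene. Rpl34 had a Treg peak of 497 bp (chr3:130730087-130730583) and a conventional peak of 578 bp (chr3:130729981-130730558). The peaks of Rpl34 centred 2 bp and 68 bp after a listed start. Rpl41, which encodes a very small ribosomal protein, had a Treg peak of 247 bp (chr10:128547676-128547922) and a conventional peak of 950 bp (chr10:128547420-128548369). Their midpoints lay 311 bp (Treg) and 216 bp (conventional) beyond the end of the Rpl41 span opposite to its start, in the window of Zc3h10, and the conventional peak reached into the span. The Rpl18 and Rpl34 peaks therefore lay at the 5′ end of the gene span, and the midpoints of the Rpl41 peaks lay at the other end.

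Rpl26, whose product binds the p53 mRNA besides its ribosomal role, had a Treg peak of 356 bp (chr11:68901451-68901806) and a conventional peak of 334 bp (chr11:68901444-68901777). Rpl27 had a Treg peak of 315 bp (chr11:101442136-101442450) and a conventional peak of 462 bp (chr11:101442087-101442548). Rpl24 had a Treg peak of 293 bp (chr16:55966365-55966657) and a conventional peak of 337 bp (chr16:55966324-55966660). These 3 genes had both peaks centred within 250 bp after the start. Rpl21 had a Treg peak of 290 bp (chr5:146832864-146833153) and a conventional peak of 368 bp (chr5:146832820-146833187).

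The 14 large subunit genes with a conventional peak alone were Rpl3, Rpl4, Rpl9, Rpl12, Rpl13a, Rpl15, Rpl17, Rpl19, Rpl22, Rpl27a, Rpl29, Rpl30, Rpl32 and Rpl38. The widest of these peaks was that of Rpl4, 586 bp at chr9:64179201-64179786, which lay 931 bp outside the span on the side away from the start, in the window of Snapc5. Rpl15 followed with 524 bp at chr14:18270678-18271201, centred 47 bp after a listed start, and the window of Nkiras1 took in that peak too. Rpl9 had 483 bp at chr5:65391197-65391679, centred 7 bp before the start and shared with the window of Lias. Rpl38, whose product is needed in mouse embryos for the translation of Hox mRNAs, had a peak of 383 bp centred on a listed start. Rpl22, of which loss halts the development of alpha beta T cells in mice, had a peak of 423 bp centred 104 bp after a listed start. No peak of either list lay at 19 large subunit genes, among them Rpl5 and Rpl11, whose products bind Mdm2 when ribosome assembly fails. Both were chosen with their values known.

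The small subunit genes carried a Treg peak at 8 of 30 (26.7%, 12.3% to 45.9%) and a conventional peak at 13 of 30 (43.3%, 25.5% to 62.6%), with both at 7. Rps3, whose product lies at the entry of the mRNA channel, had a Treg peak of 381 bp (chr7:99483412-99483792) and a conventional peak of 538 bp (chr7:99483374-99483911). Rps19, a gene of which mutations cause Diamond-Blackfan anaemia in humans, had a Treg peak of 528 bp (chr7:24884144-24884671) and a conventional peak of 384 bp (chr7:24884172-24884555). Rps9 had a Treg peak of 331 bp (chr7:3703846-3704176) and a conventional peak of 528 bp (chr7:3703650-3704177). All 3 genes lie on chromosome 7, and all 3 had peaks within 250 bp of a listed start in both lists.

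Rps18 had a Treg peak of 331 bp (chr17:33955631-33955961) and a conventional peak of 466 bp (chr17:33955619-33956084), both also in the window of Vps52. Rps13 had a Treg peak of 306 bp (chr7:116334001-116334306) and a conventional peak of 334 bp (chr7:116334026-116334359), centred 37 bp after and 2 bp before the start. Rps14 had a Treg peak of 343 bp and a conventional peak of 440 bp at the same end of its span.

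Rps27a, which encodes ubiquitin fused to a ribosomal protein, was the small subunit gene with a Treg peak alone, of 353 bp (chr11:29548237-29548589), in the window of Clhc1 too. A conventional peak alone was found at 6 small subunit genes. Rps3a1 had one of 502 bp (chr3:86142420-86142921), centred 2 bp before the start. Rps7, Rps12 and Rps15a had peaks of 353 to 458 bp. No peak of either list lay at 16 small subunit genes, among them Rps6, the substrate of the S6 kinases. Rps6 was chosen with its values known.

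Of the 12 ribosomal paralogs and associated proteins 1 had a Treg peak (8.33%, 0.211% to 38.5%) and 0 a conventional peak (0% to 26.5%). These intervals include the 11.2% and 16.0% of all protein-coding genes. The Treg peak was at Rps19bp1, named for a protein that binds Rps19, 270 bp wide and centred 8 bp before the start. This group holds retrogenes and tissue-restricted copies such as Rpl3l, the copy used in striated muscle, and Rpl10l, the copy used in testis.

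Elongation factor genes carried peaks at 3 of 6, the same 3 in both lists. With 6 genes the interval in each list was wide, 11.8% to 88.2%. It includes the 16.0% of all protein-coding genes with a conventional peak. Its lower end lies just above the 11.2% of all genes with a Treg peak. Eef2, the GTPase that moves the ribosome by a codon, had the second widest Treg peak of the members, 869 bp (chr10:81176411-81177279), and a conventional peak of 297 bp (chr10:81177061-81177357). Eef1g and Eef1b2 encode subunits of the complex that recharges the tRNA-delivering factor with GTP. Eef1g had a Treg peak of 371 bp (chr19:8966830-8967200) and a conventional peak of 697 bp (chr19:8966645-8967341), in the window of Tut1 too. Eef1b2 had a Treg peak of 422 bp (chr1:63176602-63177023) and a conventional peak of 529 bp (chr1:63176662-63177190), in the window of Ndufs1 too. Eef1a1, which encodes the tRNA-delivering factor itself, had no peak in either list, and neither did Eef1a2 or Eef1d.

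Initiation factor genes carried a Treg peak at 8 of 46 (17.4%, 7.82% to 31.4%) and a conventional peak at 14 of 46 (30.4%, 17.7% to 45.8%), with both at 6. Over all genes these shares were 11.2% and 16.0%, and the Treg interval includes the first. The eIF4 genes are named after the factor that binds the cap and unwinds the mRNA, and not all of their products do so. They held 7 of the 14 genes with a conventional peak (7 of 12 genes, 58.3%, 27.7% to 84.8%) and 2 of the 8 with a Treg peak (16.7%, 2.09% to 48.4%). Eif4a1, the helicase, had a Treg peak of 666 bp (chr11:69671061-69671726) that overlapped a conventional peak of 540 bp (chr11:69671010-69671549) over 1 kb into the gene. A further conventional peak of 639 bp (chr11:69672142-69672780) lay at its start, in the window of Senp3 too. Eif4g2, which encodes an eIF4G-like protein that supports initiation without cap binding, had the widest conventional peak of all members, 1792 bp (chr7:111081879-111083670), the eighth widest of its list. Its Treg peak was 349 bp wide (chr7:111082116-111082464) and lay within the conventional one. A conventional peak alone was found at Eif4a2, Eif4a3, Eif4e2, Eif4g1 and Eif4h, with widths of 383 to 467 bp. Eif4e, the cap-binding protein, had no peak in either list and was chosen with its values known.

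The eIF2 factor carries the first tRNA, and eIF2B recharges it with GTP. With Eif2a and Eif2d, whose products deliver tRNA without being subunits of either, these 11 genes carried a Treg peak at 2 and a conventional peak at 3. Their shares were 18.2% (2.28% to 51.8%) and 27.3% (6.02% to 61.0%), with intervals that include the 11.2% and 16.0% of all genes. Eif2b4, a subunit of eIF2B, was the gene with both, at 591 bp in the Treg list (chr5:31192646-31193236) and 777 bp in the conventional list (chr5:31192510-31193286), and the window of Snx17 took in both peaks. Eif2d had a Treg peak alone, 459 bp wide (chr1:131178937-131179395), inside the gene, 25959 bp after the nearest listed start and in the window of Rassf5. Eif2s1, the subunit that stress kinases phosphorylate, had a conventional peak alone of 525 bp (chr12:78861261-78861785), 549 bp outside the span and in the window of Atp6v1d. Eif2b1 had a conventional peak alone of 310 bp.

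Of the 14 eIF3 genes, which encode the large scaffold on the small subunit, 2 had a Treg peak and 1 had a conventional peak. Eif3h had a Treg peak of 260 bp (chr15:51865305-51865564) and a conventional peak of 328 bp (chr15:51865325-51865652). Eif3f had a Treg peak alone of 345 bp (chr7:108934182-108934526). The eIF3 share in the conventional list, 7.14% (0.181% to 33.9%), was below the 16.0% of all genes, with an interval that includes it. In the Treg list it was 14.3% (1.78% to 42.8%), against 11.2%.

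Among the genes for eIF1, eIF5 and eIF6, 2 of 9 had a Treg peak and 3 of 9 a conventional peak. These shares were 22.2% and 33.3%. Their intervals start at 2.81% and 7.49% and include the 11.2% and 16.0% of all protein-coding genes. Eif5, which makes eIF2 hydrolyse GTP once the start codon is found, had the widest Treg peak of all members, 1226 bp (chr12:111537941-111539166). Its conventional peak was 678 bp wide (chr12:111538566-111539243). Eif5a, the factor that carries the modified amino acid hypusine, had a Treg peak of 561 bp (chr11:69921227-69921787) and a conventional peak of 509 bp (chr11:69921341-69921849). Eif1, which helps to select the start codon, had 2 conventional peaks and no Treg peak. They were 289 bp (chr11:100319536-100319824) and 601 bp (chr11:100320124-100320724) wide, on either side of the start.

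Of the 15 enzymes, binding proteins and paralogs named after factors, 3 had a Treg peak and 4 a conventional peak. The intervals of these shares were 4.33% to 48.1% (Treg) and 7.79% to 55.1% (conventional). They include the 11.2% and 16.0% of all protein-coding genes. Eif4ebp2, a repressor that holds the cap-binding protein until mTORC1 phosphorylates it, had a Treg peak of 260 bp (chr10:61452805-61453064) and a conventional peak of 350 bp (chr10:61452726-61453075). Eef2kmt, which methylates eEF2, had a Treg peak of 354 bp (chr16:5255919-5256272) and a conventional peak of 409 bp (chr16:5255620-5256028). Eef1akmt1, an enzyme that methylates the tRNA-delivering factor, had a Treg peak alone of 319 bp (chr14:57559292-57559610), inside the gene and 9856 bp from its nearer end. A conventional peak alone was found at Eif1ad, with 592 bp (chr19:5366524-5367115) and in the window of Banf1 too, and at Eef1akmt2, with 333 bp.

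**Figure D2:**
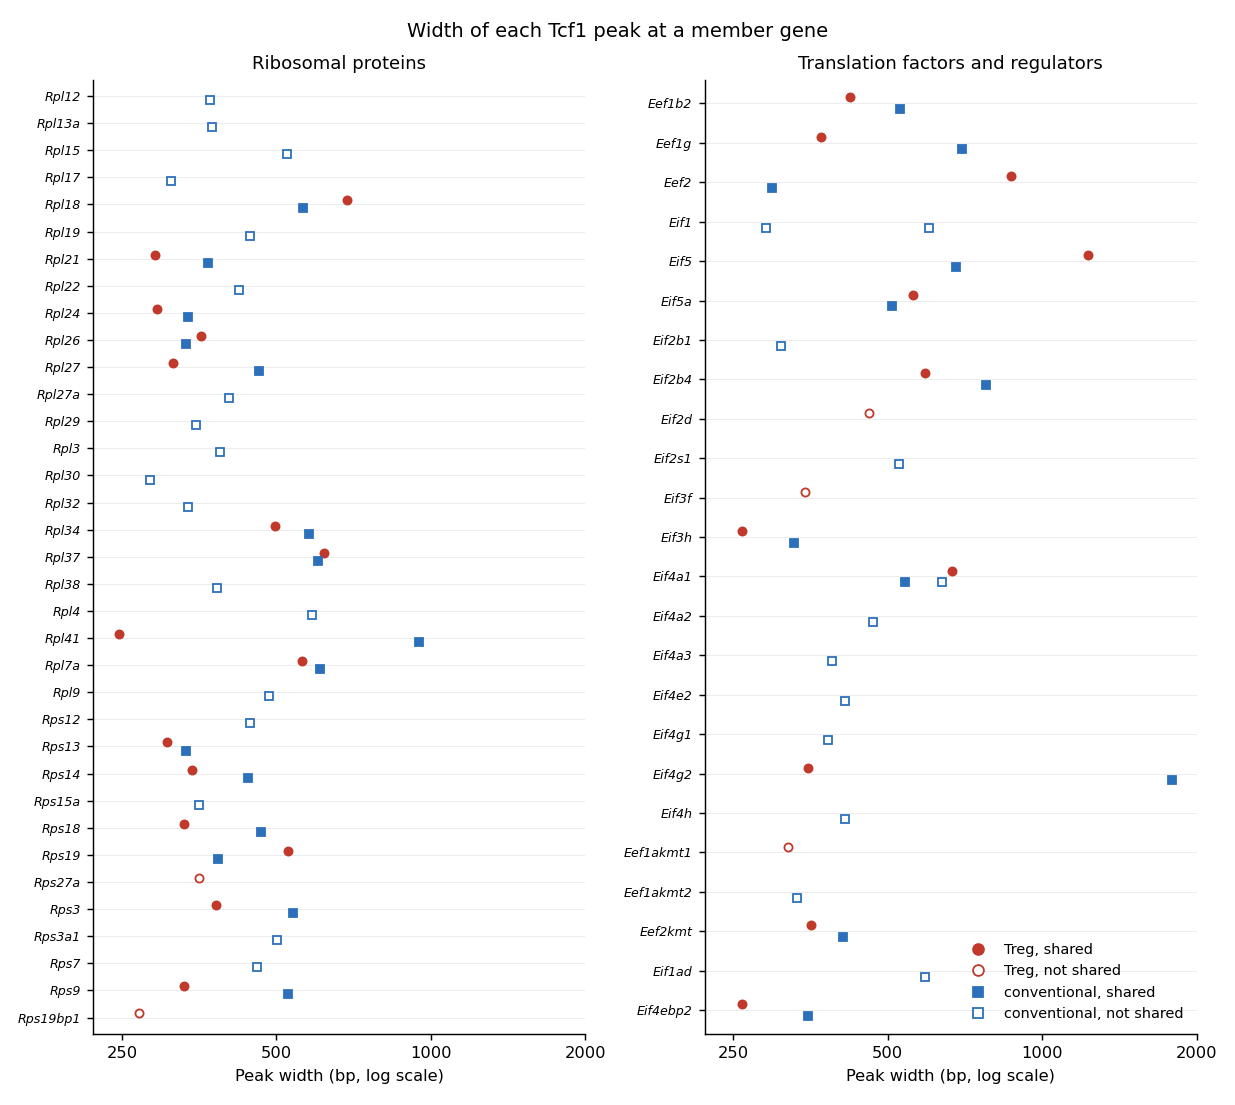
Width in bp, on a log scale, of each Tcf1 peak at 59 of the 63 members with a peak, with Treg peaks as red circles and conventional peaks as blue squares; filled symbols overlap a peak of the other list. Most Treg symbols are filled (26 of 31), while 30 of 56 conventional symbols are open.

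The peaks at the members were shared between the lists to different degrees. Of 34 Treg peaks at members 29 overlapped a conventional peak (85.3%, 68.9% to 95%), against 61.5% of the 2422 Treg peaks at any protein-coding gene. In the conventional list 29 of 61 overlapped a Treg peak (47.5%, 34.6% to 60.7%), against 42.1% of the 3531 conventional peaks at any protein-coding gene. Midpoints of overlapping peaks lay a median of 66 bp apart at members (5 to 484 bp, 29 pairs) and 59 bp apart over all 1935 shared Treg peaks. Few of the unmatched peaks had a counterpart farther out. Of the 30 members with a conventional peak alone, 2 had a Treg peak within 10000 bp of the span, and of the 5 members with a Treg peak alone, 1 had a conventional peak that close.

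Peaks at the members were of ordinary width for their lists. Their median width was 351 bp in the Treg list (quartiles 308 and 520 bp, n = 34), against 366 bp for the whole list, and 41.2% of them were wider than that median. In the conventional list it was 432 bp (359 to 529 bp, n = 61), against 428 bp for the whole list, and 50.8% were wider. The conventional peaks that overlapped a Treg peak had a median of 466 bp, and those that did not had 412.5 bp. Width is the only graded value in the lists, and it can depend on sequencing depth and calling, so widths are not set against each other between the lists.

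Peaks at the members gathered at the ends of the genes. Of the 34 Treg peaks 31 had their midpoint within 1 kb of an end of the span (91.2%, 76.3% to 98.1%), against 61.8% of the peak-gene pairs of all protein-coding genes. Of the 61 conventional peaks 56 did (91.8%, 81.9% to 97.3%), against 64.5%. Member genes are short, with a median span of 4790 bp against 17200 bp for all genes, which leaves less room away from the ends. A start was listed for 117 of the 152 members. At these genes 18 of 24 Treg peaks (75%, 53.3% to 90.2%) and 34 of 46 conventional peaks (73.9%, 58.9% to 85.7%) centred within 250 bp of a listed start, against 48.5% and 51.2% of the pairs of all genes with a listed start. Counted by gene, 20 of 117 members had a Treg peak within 1 kb of a listed start (17.1%, 10.8% to 25.2%), against 8.15% of all genes. The conventional count was 40 of 117 (34.2%, 25.7% to 43.5%), against 12.7%, and 18 of 117 had both (15.4%, 9.38% to 23.2%), against 5.6%.

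**Figure D3:**
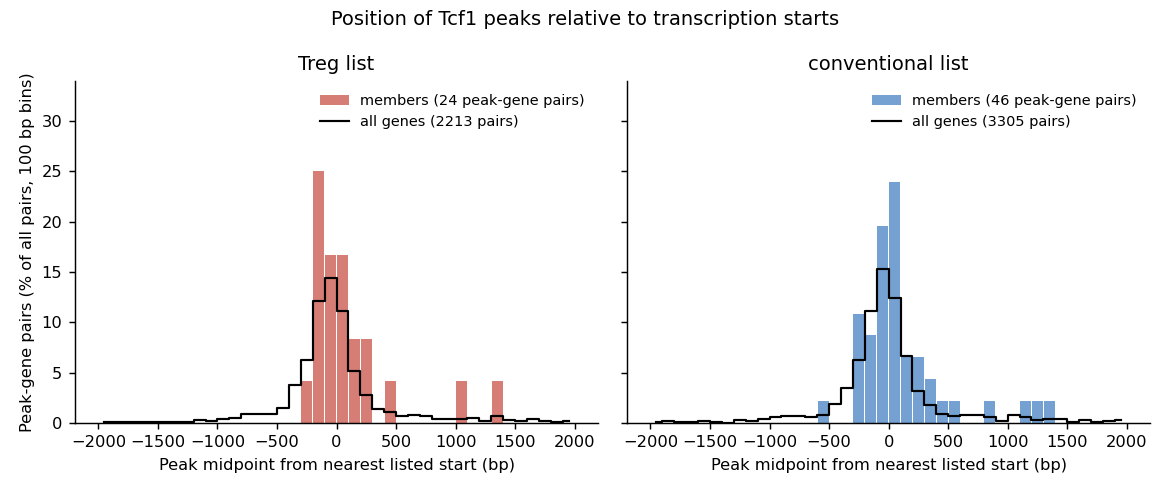
Distance in bp from the nearest listed transcription start to the midpoint of each peak, in bins of 100 bp, as a percentage of the peak-gene pairs, for the Treg list (left) and the conventional list (right). Bars are the members and the black line is all protein-coding genes; 2 Treg pairs (Rpl18, Eif2d) and 2 conventional pairs (Rpl18, Rpl4) lie beyond the axis, and most bars stand within 250 bp of the start.

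Some of the peaks could be counted to a neighbour as well. Of the Treg peaks at members 10 of 34 (29.4%, 15.1% to 47.5%) lay in the window of another protein-coding gene, against 13% of Treg peaks at any protein-coding gene. In the conventional list this held for 15 of 61 (24.6%, 14.5% to 37.3%), against 14.5%. With those peaks left out, 23 members had a Treg peak (15.1%, against 8.54% of all genes counted the same way) and 44 had a conventional peak (28.9%, against 11.7%). A peak list cannot assign such a peak to one gene of a pair.

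With gene spans alone, 20 members had a Treg peak and 35 a conventional peak, and with windows of 5000 bp 35 and 60 did, against 33 and 58 at 1 kb. Peaks far outside a span that still counted were those of Rpl4 (931 bp, conventional) and Eif2s1 (549 bp, conventional). The nearest that did not count lay 1300 bp (Treg) and 1470 bp (conventional) from Rpl13a, which had a conventional peak within its window and no Treg peak. Next, a Treg peak lay 2352 bp from Rpl24, and a Treg and a conventional peak lay 2596 and 2634 bp from Rpl14.

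Span length and promoter composition also differ between these genes and others. Genes were cut into 3 classes of about equal size by span length and by CpG number. In the shortest class 26 of 102 members had a Treg peak (25.5%, 17.4% to 35.1%) and 44 had a conventional peak (43.1%, 33.4% to 53.3%), while in the longest class 2 of 13 (15.4%, 1.92% to 45.4%) and 1 of 13 (7.69%, 0.195% to 36.0%) did. Over all genes the order was the other way round, at 5.71% Treg and 8.43% conventional in the shortest class and 16.4% and 21.9% in the longest class. Few members were long, so the intervals there are wide.

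Members had a median of 22 CpG in the promoter, from 250 bases before to 50 bases after the start, against 13 over all genes, and 4 of 117 fell in the poor class. Within the CpG-rich class 15 of 60 members had a Treg peak (25%, 14.7% to 37.9%, against 20.9%) and 27 had a conventional peak (45.0%, 32.1% to 58.4%, against 30.2%). The Treg interval thus includes the share of all CpG-rich genes, and the conventional interval does not. In the CpG-poor class 2.92% of all genes had a Treg peak and 3.95% a conventional peak. Among genes that were both in the shortest class and CpG-rich, 13 of 41 members had a Treg peak (31.7%, 18.1% to 48.1%), against 17.5% of 961 other genes. In the conventional list 21 of the 41 had one (51.2%, 35.1% to 67.1%), against 25.2%. How strongly the genes were transcribed is not known from these lists.

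**Figure D4:**
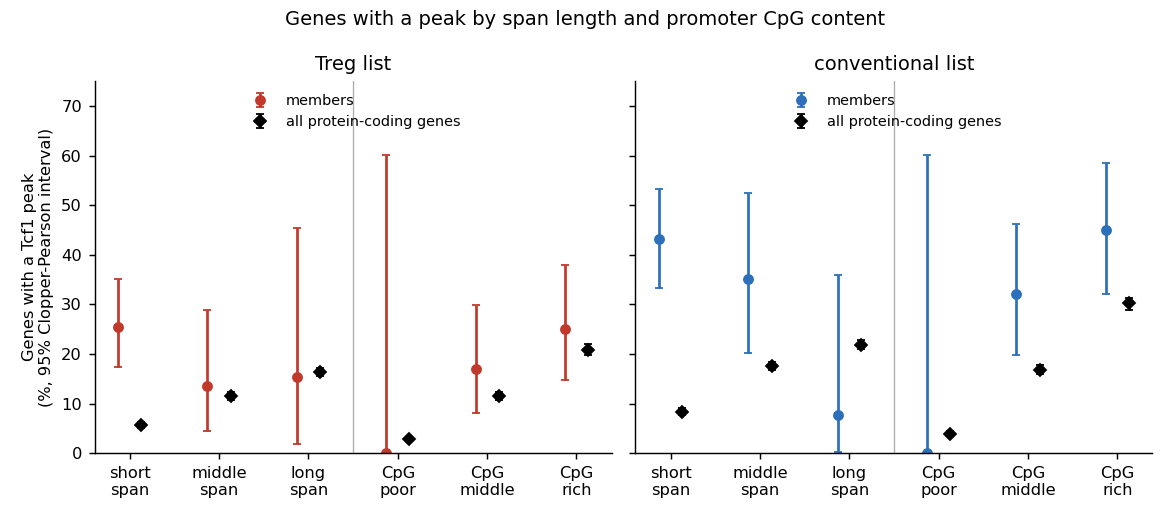
Percentage of genes with a Tcf1 peak by span length and by CpG number in the promoter, each cut into 3 classes over all genes, for the Treg list (left) and the conventional list (right), with 95% Clopper-Pearson intervals; circles are members and black diamonds all protein-coding genes. Among short genes the members stand at 25.5% and 43.1%, against 5.71% and 8.43% of all genes, while in the CpG-rich class the Treg values are 25% and 20.9%.

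Many ribosomal protein genes hold small nucleolar RNA genes in their introns. Of the 36 members with such a gene inside the span, 12 had a Treg peak (33.3%, 18.6% to 51.0%) and 24 had a conventional peak (66.7%, 49.0% to 81.4%). Of the 116 members without one, 21 had a Treg peak (18.1%, 11.6% to 26.3%) and 34 a conventional peak (29.3%, 21.2% to 38.5%). Over all 372 protein-coding genes with a small nucleolar RNA gene inside, the shares were 21.0% Treg and 32.8% conventional. Among the 73 proteins of the ribosome the Treg counts were 7 of 28 hosts and 11 of 45 others, and the conventional counts were 17 of 28 and 20 of 45. The same products have many processed pseudogenes, copies of the mRNA without the promoter. Such pseudogenes were taken by symbols of Rpl or Rps and a number followed by -ps. Of these 303 pseudogenes, 0 had a peak of either list inside or within 1 kb (0% to 1.21%). The share over other pseudogenes was not counted, so whether this differs from them was not tested. The sources used here do not say whether reads that match several near-identical copies were kept, so binding in such copies may not have been detectable.

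Letters of known motifs were counted in the same promoter window of the 117 members, on both strands, with 1 promoter per gene. The TCF/LEF letters were present in 5 of 47 promoters of members with a peak (10.6%, 3.55% to 23.1%) and 14 of 70 of members without (20%, 11.4% to 31.3%), against 28.5% of 17492 promoters of protein-coding genes. The stricter forms CTTTGAA and CTTTGAT were present in 1 of 47 (2.13%) and 2 of 70 (2.86%), against 7.83%. Promoters of all genes with a peak within 1 kb of a listed start had the TCF/LEF letters in 25%. That rule is narrower than the one used for the 47 members, and 42 of the 117 members met it. The letters were therefore not more common in member promoters with a peak than in the rest. These shares depend on base composition, and member promoters with a peak had a median GC content of 60.3%, against 56.3% over all genes. Peaks can also extend beyond the promoter window, so the absence of these letters says nothing about the rest of a peak.

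ETS letters (CCGGAAG) were present in 15 of 47 promoters of members with a peak (31.9%, 19.1% to 47.1%) and 22 of 70 without (31.4%, 20.9% to 43.6%), against 11.9% of all promoters. YY1 letters (AAGATGG) were present in 9 of 47 (19.1%, 9.15% to 33.3%) and 8 of 70 (11.4%, 5.07% to 21.3%), against 6.35%. In the 250 bases before the start alone, YY1 letters were in 5 of 47 (10.6%, 3.55% to 23.1%) and 2 of 70 (2.86%, 0.348% to 9.94%). Over all promoters that share was 4.08%, which both intervals include. SP letters (GGGCGG) were present in 32 of 47 (68.1%) and 43 of 70 (61.4%), against 46.3%. The ETS and SP shares thus stood above those of all promoters in members with and without a peak. In all genes with a peak within 1 kb of a listed start, ETS letters were in 23.2% and YY1 letters in 8.44%. SP letters were in 71.6% of them, and the SP share of members with a peak was not above that. The members were taken by the wider rule, a peak in the span or within 1 kb of it. RUNX letters (TGTGGTT) were in 1 of 47 and 2 of 70, against 4.83%. E-box letters (CACGTG) were in 8 of 47 and 10 of 70, against 7.91%. NRF1 letters (GCATGCG) were in 4 of 47 and 5 of 70, against 4.5%. The CCAAT box was found in 11 of 47 and 25 of 70, against 39.2%, and TATA-box letters (TATAAA) in 4 of 47 and 8 of 70, against 13.3%. A run of at least 8 pyrimidines at the start was found in 13 of 47 promoters with a peak (27.7%) and 20 of 70 without (28.6%), against 11.3% over all genes, so the tract did not separate the members with a peak from the others.

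**Figure D5:**
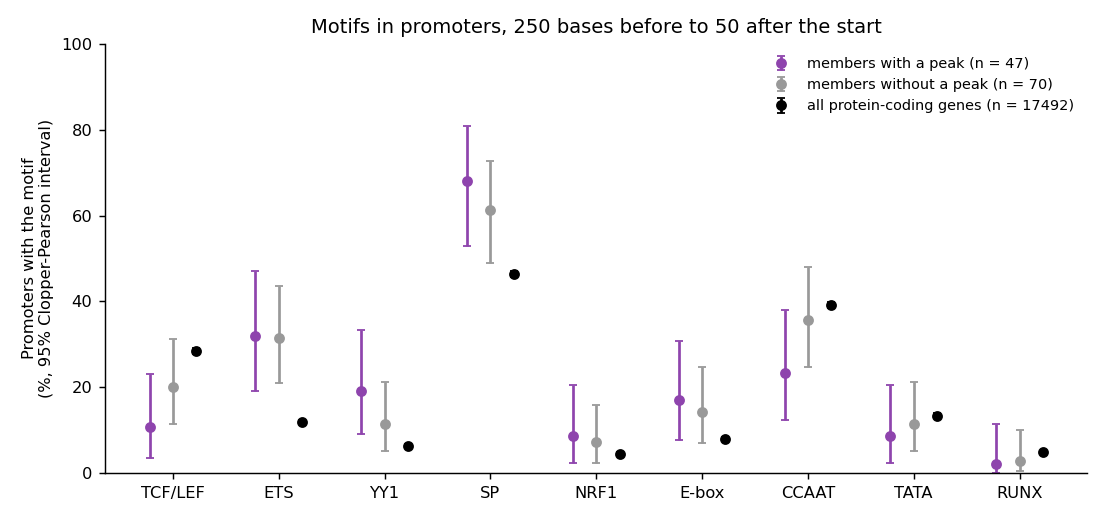
Percentage of promoters, from 250 bases before to 50 bases after the listed start, that hold the letters of each motif on either strand, with 95% Clopper-Pearson intervals, for members with a peak in either list, members without a peak and all protein-coding genes. ETS letters stand at 31.9% and 31.4% in members with and without a peak, against 11.9% over all genes, while TCF/LEF letters stand at 10.6% and 20%, against 28.5%.

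Other genes of the translation pathway were listed for comparison, and 22 of 72 had a Treg peak (30.6%, 20.2% to 42.5%) and 28 of 72 a conventional peak (38.9%, 27.6% to 51.1%). Over all protein-coding genes these shares were 11.2% and 16.0%. Both peaks were present at 14 of the 72 (19.4%, 11.1% to 30.5%), against 7.76% of all genes. Of 10 genes of mTORC1 and its translation arm 5 had a Treg peak and 5 a conventional peak, with both at Mlst8, Rheb and Pdcd4. Of 20 cytosolic tRNA synthetase genes 6 had a Treg peak and 5 a conventional peak, with both at Cars, Mars1 and Vars. Of 14 ribosome biogenesis genes 3 had a Treg peak and 4 a conventional peak, with both at Rrn3 and Ubtf, factors of ribosomal RNA transcription. The biogenesis shares were 21.4% (4.66% to 50.8%) and 28.6% (8.39% to 58.1%), with intervals that include the shares over all genes. Among 7 stress response genes both peaks were found at Atf4 and Eif2ak3, and a conventional peak was found at 4. The stress response shares were 28.6% Treg (3.67% to 71.0%) and 57.1% conventional (18.4% to 90.1%), and the Treg interval includes the share over all genes. The remaining translation genes with both were Rplp2, Tpt1, Ncl and Etf1. The Treg share was thus 21.7% in the members and 30.6% in this list, with intervals that overlap, and the conventional shares were 38.2% and 38.9%.

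By chromosome, members with a peak were most numerous on chromosomes 7 and 11, which hold the most members. On chromosome 7 a Treg peak was found at 8 of 19 members (42.1%) and a conventional peak at 13 of 19 (68.4%), against 9.41% and 13.6% of all protein-coding genes there. On chromosome 11 the counts were 5 of 12 (41.7%) and 8 of 12 (66.7%), against 14.0% and 20.1% of all genes there. Chromosome 15 had 3 of 11 (27.3%) and 4 of 11 (36.4%), against 13.1% and 19.2%. Chromosome 9 had 0 of 9 and 2 of 9 (22.2%), against 11.6% and 15.9%. None of the 6 members on chromosome X had a peak in either list, and 3.42% of all genes there had one in each list. None of the 3 members on chromosome 13 or the 1 on chromosome Y had a peak either.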

How the data were processed

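Tcf1 chromatin immunoprecipitation was sequenced from sorted Treg and conventional CD4 T cells, 1 library each, per the labels' protocols. Bowtie2 2.3.4.1, MACS2 2.1.1, FastQC and mm10 are named in the submitters' processing notes, with no order or settings. The deposited lists hold 3 columns (chromosome, start and end) with no count, height or p-value, and are labelled by the authors as filtered. What the filter removed is not stated there. Coordinates are printed as 1-based positions.

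Python 3.11.15 with numpy 2.4.6, pandas 2.3.3, scipy 1.17.1 and matplotlib 3.10.9 was used. Gene spans and symbols came from the RefSeq table of GRCm38.p6, and starts, strands and promoter sequences from RefSeq promoters of that build. The table lists starts for 117 of 152 members, and the outermost start of a gene was used for motifs. Shared means an overlap of at least 1 bp with a peak from the other cell type. No test was made, since each cell type has 1 library. Members are set beside all protein-coding genes, in place of random genes. Members and lists were chosen with earlier results of these data known.

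By rule, every member with a peak in both lists was named with its peaks, as were the 4 members with the widest peaks of each list alone, and other members with a peak by name. Further coordinates were added with values known. Values of some members that the rule takes, and coordinates for Rps14, are not reported here. Assignment of peaks to genes was tested on simulated peaks.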

Additional observations from a re-analysis of the deposited data

How the results depend on the processing

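Counts kept their order (fewer members with a Treg peak than with a conventional peak) in the 12 alternatives run. With the widest 1701 Treg and 2260 conventional peaks, 14 members had a Treg peak, 30 a conventional peak and 11 both, a difference of -16 (Treg minus conventional; -25 in the full lists). Shares were then 9.21% and 19.7%, against 6.15% and 8.89% of all genes. With gene spans alone, the counts were 20, 35 and 14, a difference of -15, and the shares were 13.2% and 23.0%, against 7.68% and 10.8%. The fewer peaks or smaller windows of these settings lower all counts. At equal list lengths the difference was -15. The settings other than the widest peaks and spans alone gave 23 to 38 members with a Treg peak, 44 to 65 with a conventional peak and 20 to 33 with both. The lowest of each came from peaks with no other protein-coding gene within 1000 bp. Shared peaks were 76.5% to 85.3% of Treg peaks and 35.5% to 48.7% of conventional peaks at members. The TCF/LEF share of member promoters was 2.56% with CTTTGAA or CTTTGAT alone, against 16.2%.

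No paired analysis was possible because each cell type has 1 library and no test was run. Depth is unknown from the files, so a gene without a peak is not shown to lack binding.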
